A study of Mus musculus with 10 samples.

Results

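Gpr17 and 8 other genes of the oligodendrocyte lineage (Olig1, Olig2, Sox10, Pdgfra, Cspg4, Bcas1, Mbp and Nkx2-2) were followed in neural stem cell cultures with and without an E147A mutation of SMCHD1. They are the rows of the deposited gene count table that carry these symbols, 9 of 52632 genes. Gpr17 was chosen by its counts, already known to be low in E147A/+ cultures of both sexes, so its own genotype difference is given as a description without a test. The other 8 were chosen as known genes of the lineage, to show whether they differed along with it or whether Gpr17 stood alone.

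Each of the 10 libraries was poly(A) RNA from an adherent monolayer of neural stem cells grown from the cortices of a single mouse embryo at embryonic day 14.5, in medium with EGF and basic FGF at 20 ng/mL each. SMCHD1 is a chromatin protein best known for its role in X inactivation. The mutant allele, Smchd1 GFP-E147A, carries a GFP tag together with the mutation and the +/+ allele has no tag, so the tag and the mutation cannot be told apart. The groups were female Smchd1 GFP-E147A/+ and XistdeltaA/+ (n = 2), female Smchd1 +/+ and XistdeltaA/+ (n = 2), male Smchd1 GFP-E147A/+ (n = 3) and male Smchd1 +/+ (n = 3). All embryos were described as offspring of a Castaneus (Cast) father and a 129/C57 F1 mother, and every female, +/+ included, carried the Xist deletion. The 2 female +/+ embryos were littermates (litter 3), whereas the female E147A/+ embryos belonged to litters 1 and 2, so genotype and litter cannot be told apart in females. Among males, litters 1, 1 and 3 gave the E147A/+ embryos, and litters 4, 1 and 3 the +/+ embryos.

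Oligodendrocytes arise from neural stem cells through a series of stages. OLIG2, OLIG1 and NKX2-2 are transcription factors that specify the lineage, and OLIG2 and OLIG1 are also made by stem cells kept in EGF and FGF. SOX10 is switched on as cells commit, PDGFRA and CSPG4 (NG2) mark the dividing progenitor, GPR17 and BCAS1 mark the cell that has left division but does not yet myelinate, and MBP is a protein of the myelin sheath. GPR17 is a membrane receptor that is made for a short window between the progenitor and the mature cell.

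Library totals ran from 20648916 to 44519020 counts, and 3 counts corresponded to 0.0693 to 0.141 CPM (counts scaled to library size). Smchd1 itself was at 117.9 ± 2.88 CPM (SD, n = 2) in female E147A/+ against 155.7 ± 22.5 in female +/+ (n = 2), and at 114.5 ± 17.9 against 155.1 ± 34.8 in males (n = 3 each). Gene counts cannot show the mutation. Neural stem cell markers (Nes, Sox2, Vim, Fabp7 and 4 others, all 8 tested) summed to 3773 to 5985 CPM, which matches the labelled cell type. The summed level of 4 Y-linked genes in the 4 female libraries was 0.0429% to 1.75% of the male mean, with the highest value in female +/+ replicate 1. Without that library the log2 fold change of Gpr17 over both sexes was -5.07 and that of Pdgfra -2.73, against -4.98 and -2.38 with it.

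Across genes, levels were compared per kilobase of exon. Olig1 stood highest at 487.5 ± 68.5 CPM per kb (SD over 10 libraries), followed by Olig2 at 240.0 ± 22.7. Next in order were Bcas1 at 13.4 ± 7.14, Cspg4 at 11.5 ± 6.03, Nkx2-2 at 5.68 ± 2.89, Sox10 at 3.39 ± 3.58 and Pdgfra at 3.12 ± 2.72. Mbp at 0.311 ± 0.209 and Gpr17 at 0.214 ± 0.284 CPM per kb were lowest. Steps larger than the SD of both neighbours were those from Olig1 to Olig2, from Olig2 to Bcas1 and from Pdgfra to Mbp. The step from Cspg4 to Nkx2-2 exceeded the SD of Nkx2-2 but not that of Cspg4. Other neighbours in this order differed by less than the SD of either.

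**Figure D1:**
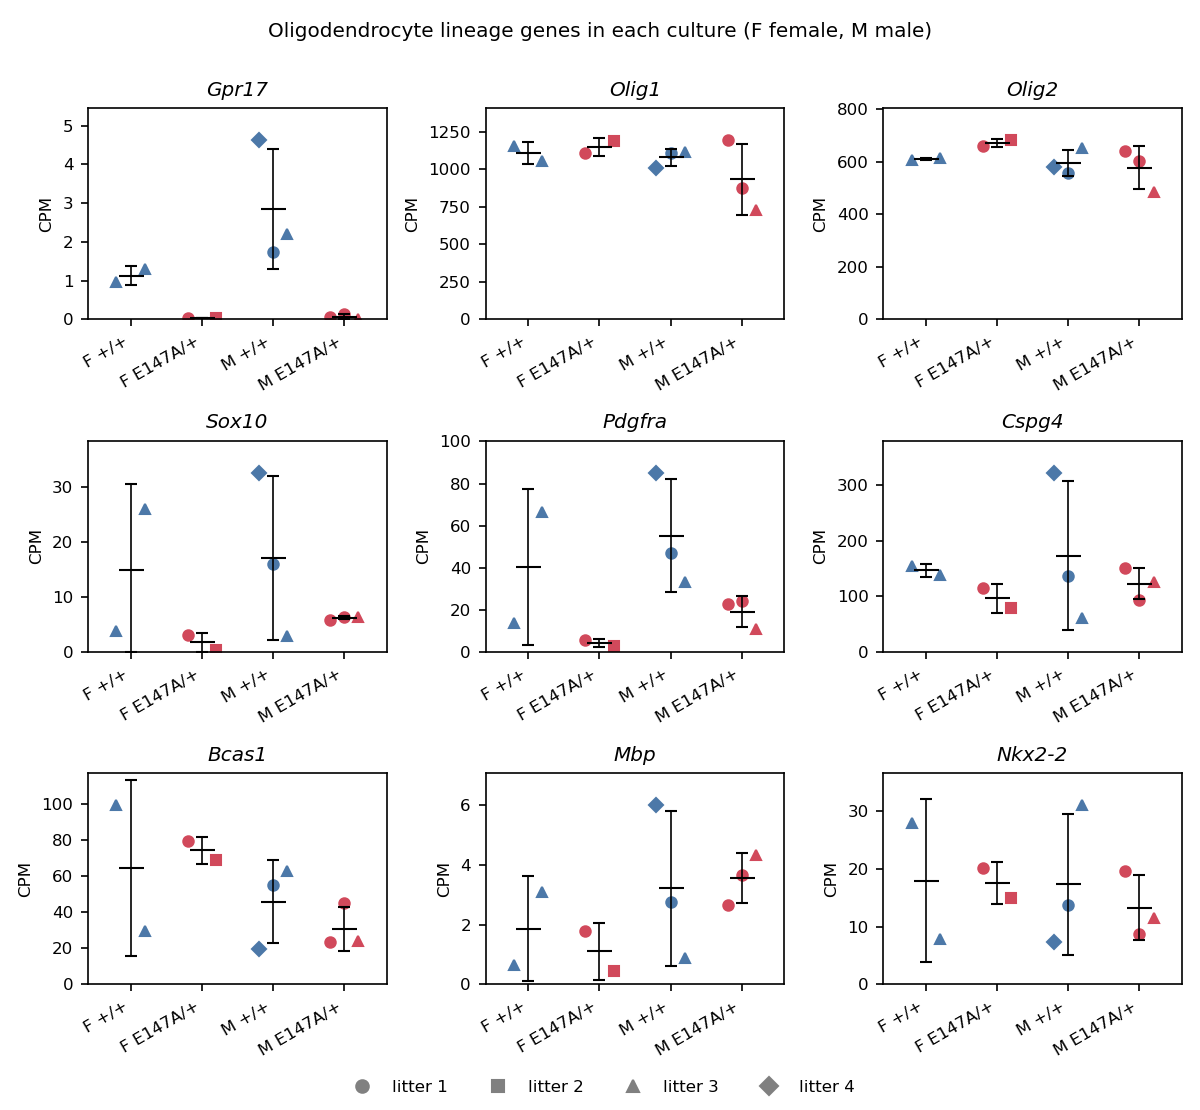
Level of each gene in CPM (vertical axis from 0, linear, its own scale for each gene) in every library, by sex and genotype; the marker shape gives the litter, blue is +/+ and red is E147A/+, and the bar and whiskers are the mean and SD of the group (n = 2 or 3, lower whisker ended at 0). All 5 E147A/+ libraries lie at 0.134 CPM or less for Gpr17, while Olig1 and Olig2 have similar levels in both genotypes.

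Gpr17 (ENSMUSG00000052229, protein coding, chromosome 18, 31942997 to 31949636, minus strand, GRCm38) had 2 and 2 counts in female E147A/+ against 30 and 51 counts in female +/+. Male E147A/+ cultures had 2, 4 and 0 counts, and male +/+ cultures 134, 37 and 65. Scaled to library size, these were 0.0462 CPM in each female E147A/+ library against 0.955 and 1.31 CPM in female +/+. Male E147A/+ cultures were at 0.0536, 0.134 and 0 CPM and male +/+ cultures at 4.62, 1.74 and 2.19 CPM. Every E147A/+ library was below every +/+ library of either sex, and among all tested genes 0.742% were separated in this way. Such separation of Gpr17 was part of the reason it was chosen, so nothing is read from that share.

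Summed over libraries, +/+ females had 81 counts and E147A/+ females 4, a scaled ratio of 24.9 (95% exact interval 9.37 to 93.7, counting error only). Males had 236 and 6 counts, a ratio of 47.9 (21.7 to 132). With both sexes together the 317 and 10 counts gave a ratio of 38.8 (20.8 to 81.7), and leaving out any 1 library kept it between 27.7 and 54.1. The fitted log2 fold change was -4.98 (SE 0.65) with the sexes combined, -4.51 (SE 0.98) for females and -5.44 (SE 0.82) for males. Gpr17 passed the filter on low counts only through the +/+ libraries. In these bulk samples, fewer cells of a type and less RNA per cell cannot be told apart.

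Litters allowed a comparison of Gpr17 in males only. Within litter 1, the E147A/+ cultures averaged 0.0938 CPM (n = 2) and the +/+ culture had 1.74 CPM. Within litter 3, the E147A/+ culture had 0 CPM and the +/+ culture 2.19 CPM. In both litters the E147A/+ side was therefore lower, with 1 or 2 cultures on each side. Litter 3 against litter 1 was fitted beside the sex and genotype groups in edgeR's quasi-likelihood test. All libraries entered the fit, but only the male cultures of litters 1 and 3 inform this contrast, since neither female group held both litters. For Gpr17 the log2 difference was -0.47 (SE 0.89, adjusted p = 0.828 in that test). In this contrast 0 of the 9 genes passed, beside 0.111% of all genes. At an unadjusted p under 0.05 the count was 0 of the 9, beside 17% of all genes, and edgeR without a filter called 1, Pdgfra, beside 4.96%. Leaving out male E147A/+ replicate 3, the library with 0 counts, turned the litter difference of Gpr17 to 0.34. Over 14 alternatives this difference ran from -4.72 to 0.34 and its adjusted p from 0.257 to 0.955.

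Among the +/+ cultures alone, Gpr17 was 1.1 ± 0.25 CPM in females (n = 2) and 2.85 ± 1.55 CPM in males (n = 3). The log2 difference, female against male, was -1.33 (SE 0.73, adjusted p = 0.999 in edgeR), and 0 of the 9 genes passed, beside 0.0292% of all genes tested. At an unadjusted p under 0.05 the count was also 0, beside 1.65% of all genes. The sex by genotype interaction of Gpr17 was 0.93 (SE 1.35), given without a test. None of the other 8 genes passed the interaction test in edgeR, beside 0 of 17110 genes. At an unadjusted p under 0.05 that count was 0 of the 8, beside 1.84% of all genes.

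Of the specifying transcription factors, Olig1 (ENSMUSG00000046160, chromosome 16, 91269772 to 91271933, plus strand) and Olig2 (ENSMUSG00000039830, chromosome 16, 91225457 to 91228677, plus strand) lie side by side. Olig1 was at 1107 and 1191 CPM in female E147A/+ against 1157 and 1056 in female +/+, and at 1191, 876 and 727 CPM in male E147A/+ against 1011, 1109 and 1113 in male +/+. The genotypes overlapped in each sex, and male E147A/+ replicate 3 was the lowest of all. With the sexes combined the log2 fold change of Olig1 was -0.08 (SE 0.15, edgeR adjusted p = 0.921). Olig2 was at 659 and 680 CPM in female E147A/+ against 607 and 612 in female +/+, and at 642, 603 and 484 CPM in male E147A/+ against 579, 556 and 650 in male +/+. The male values overlapped, and with 2 female cultures of each genotype nothing is read from the order of the female values. The fold change of Olig2 was 0.05 (SE 0.12, adjusted p = 0.948).

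Nkx2-2 (ENSMUSG00000027434, chromosome 2, 147177546 to 147194243, minus strand), a homeodomain factor of the lineage, was at 20.2 and 15 CPM in female E147A/+ against 28 and 7.96 in female +/+. Males had 19.6, 8.74 and 11.5 CPM in E147A/+ and 7.35, 13.7 and 31.0 in +/+. The spread among +/+ cultures enclosed the E147A/+ values, and the log2 fold change was -0.21 (SE 0.46, adjusted p = 0.932). Over 18 alternatives it ran from -0.53 to 0.39, with the same direction in 15. Reads of Nkx2-2 may be shared with Nkx2-2os and 6430503K07Rik on the opposite strand, which had 151 and 121 counts over all libraries.

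Sox10 (ENSMUSG00000033006, chromosome 15, 79154908 to 79165240, minus strand), the factor that accompanies commitment, varied 74.2-fold between the lowest and the highest culture, the widest range among the 8 genes other than Gpr17. It was at 3.00 and 0.439 CPM in female E147A/+ against 3.82 and 26.0 in female +/+. Male E147A/+ cultures were at 5.87, 6.33 and 6.45 CPM and male +/+ cultures at 32.6, 16.1 and 2.83. The 3 highest values were all from +/+ cultures, but the remaining +/+ cultures were below every male E147A/+ culture. The log2 fold change was -2.29 (SE 0.76, unadjusted p = 0.013, adjusted p = 0.727). It ran from -3.27 to -1.31 when each library was left out, and -1.31 was the value without female +/+ replicate 2. Within male litter 1 the E147A/+ mean of 6.10 CPM was under the +/+ value of 16.1, and within litter 3 the E147A/+ value of 6.45 CPM was over the +/+ value of 2.83.

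Pdgfra (ENSMUSG00000029231, chromosome 5, 75152292 to 75198215, plus strand) encodes the PDGF receptor through which progenitors are kept dividing. With the sexes combined its log2 fold change of -2.38 was the largest of the 9 genes after Gpr17. The gap to Sox10 at -2.29 was smaller than the SE of either. Pdgfra was at 5.77 and 2.84 CPM in female E147A/+ against 14.0 and 66.7 in female +/+. Male E147A/+ cultures were at 22.6, 24 and 10.7 CPM and male +/+ cultures at 85.0, 47.2 and 33.4. In each sex every E147A/+ culture was below every +/+ culture, but female +/+ replicate 1 was below the higher male E147A/+ cultures. Among all tested genes 1.27% were lower in this way within both sexes. Within male litters the E147A/+ side was also lower, at 23.3 against 47.2 CPM in litter 1 and 10.7 against 33.4 CPM in litter 3.

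The log2 fold change of Pdgfra was -3.23 (SE 0.76) for females, -1.53 (SE 0.58) for males and -2.38 (SE 0.48) with the sexes combined. Over 19 alternatives the value for females ran from -3.95 to -1.70. The combined difference did not pass in edgeR (unadjusted p = 0.00060, adjusted p = 0.249). It passed in DESeq2 (adjusted p = 4.63e-05) and in edgeR without a filter on low counts (0.0133), and over all 18 alternatives the adjusted p ran from 4.63e-05 to 0.980. Its direction was negative in all 18, between -2.73 and -1.61. Female +/+ replicate 2, the culture at 66.7 CPM, weighed on the size, and without it the fold change was -1.61.

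Cspg4 (ENSMUSG00000032911, chromosome 9, 56865033 to 56899870, plus strand) encodes the NG2 proteoglycan of progenitors, which pericytes also carry. It was at 115 and 78.5 CPM in female E147A/+ against 156 and 138 in female +/+. Males had 151, 93.8 and 125 CPM in E147A/+ and 322, 136 and 61.2 in +/+. The male values overlapped, with male +/+ cultures both highest and lowest. With 2 female cultures of each genotype, nothing is read from the order of the female values. The log2 fold change was -0.55 (SE 0.38, adjusted p = 0.824). The summed level of 5 pericyte markers was 0.925 to 7.68 CPM in E147A/+ and 1.22 to 4.14 CPM in +/+, with 3 of the 5 tested, and its part in the Cspg4 level was not tested.

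Bcas1 (ENSMUSG00000013523, chromosome 2, 170346991 to 170427845, minus strand) marks, like Gpr17, the stage before myelination. It was at 79.4 and 69.0 CPM in female E147A/+ against 99.1 and 29.8 in female +/+. Males had 23.5, 44.8 and 24.3 CPM in E147A/+ and 19.8, 55.0 and 62.9 in +/+. The genotypes overlapped in both sexes, and the lowest of all 10 values belonged to male +/+ replicate 1, the culture with the most Gpr17. The log2 fold change was -0.18 (SE 0.39, adjusted p = 0.929). Over 18 alternatives it ran from -0.50 to 0.38, with the same direction in 17.

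Mbp (ENSMUSG00000041607, chromosome 18, 82475146 to 82585637, plus strand), the myelin gene, had few counts in every culture (19 to 174). It was at 1.78 and 0.439 CPM in female E147A/+ against 0.637 and 3.11 in female +/+. Males had 2.68, 3.68 and 4.35 CPM in E147A/+ and 6, 2.77 and 0.877 in +/+. The genotypes overlapped throughout, and the log2 fold change was -0.30 (SE 0.62, adjusted p = 0.924). Over 18 alternatives it ran from -0.96 to 0.47, with the same direction in 14. The pseudogene Rpl21-ps8 lies inside Mbp on the opposite strand and had 22326 counts over all libraries. Whether any of its reads were counted for Mbp was not tested.

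**Figure D2:**
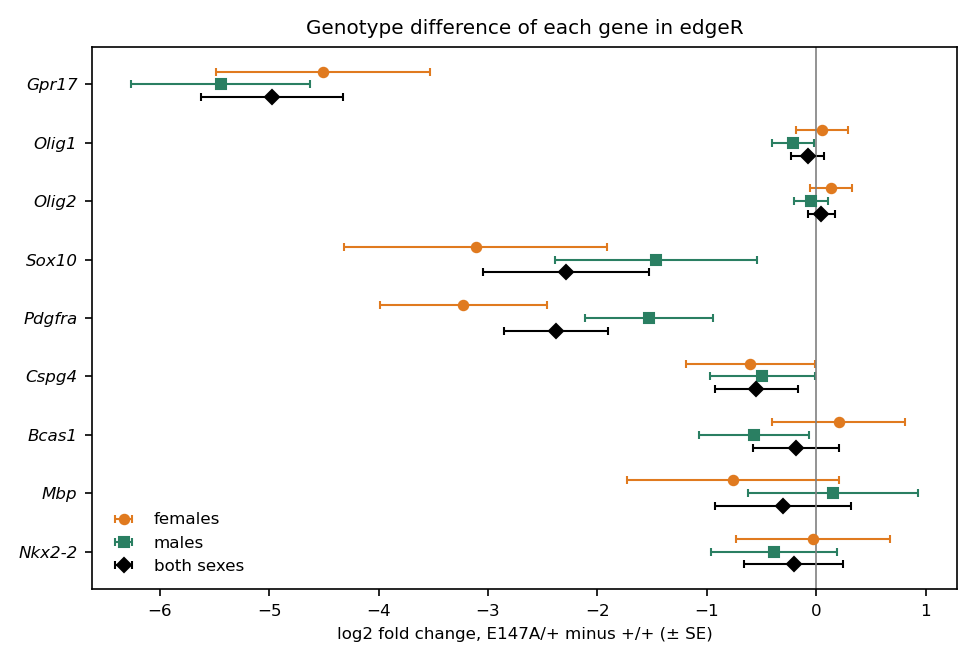
Log2 fold change of each gene between E147A/+ and +/+ (horizontal axis, points with SE from edgeR) for females (orange), males (green) and the sexes combined (black). Gpr17 at -4.98 over both sexes lies furthest from 0, Pdgfra at -2.38 and Sox10 at -2.29 come next, and the other 6 genes lie between -0.55 and 0.05.

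Over both sexes 0 of the 8 genes other than Gpr17 passed an adjusted p of 0.05 in edgeR, beside 0.0818% of all 17110 genes tested. At an unadjusted p under 0.05 there were 2, Pdgfra and Sox10, beside 5.9% of all genes. DESeq2 and edgeR without a filter each called 1 of the 8, Pdgfra, beside 0.662% and 0.116% of the genes they tested. Their median log2 fold change was -0.26, beside -0.01 over all genes. In females and in males 0 of these 8 passed in edgeR, beside 0.0117% and 0.0234% of all genes. Of the 8 without Gpr17, those at an unadjusted p under 0.05 numbered 2 in females, beside 4.36% of all genes, and 1 in males, beside 3.44%. DESeq2 called 1 of the 8 in females, Pdgfra, beside 0.258% of all genes, and 0 in males, beside 0.27%. In males limma-voom and edgeR without a filter also called 0 of the 8, beside 0.0526% and 0.0493% of the genes they tested.

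The counts of Gpr17 were also set against those of other genes in the same library. Per 100 counts of Pdgfra, Gpr17 had 0 to 1.63 counts in the 5 E147A/+ libraries and 1.97 to 6.83 in the 5 +/+ libraries. Per 100 counts of Mbp it had 0 to 10.5 in E147A/+ and 42.1 to 250 in +/+. Per 100 counts of Bcas1 the ranges were 0 to 0.299 and 0.964 to 23.4. Per 100 counts of Sox10 they were 0 to 10.5 and 5.04 to 77.4, and overlapped. These ratios hold the Gpr17 counts by which it was chosen, which largely fixes their split by genotype, so nothing is read from them about the rest of the lineage.

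With the mean of each sex and genotype group removed, so that the genotype difference played no part, Gpr17 was compared with each other gene over the 10 libraries in log2 CPM. The E147A/+ libraries held only 0 to 4 counts of Gpr17, so counting error weighs on every r below and on their order. Pdgfra was closest, with Pearson's r = 0.655 (exact permutation within groups, two-sided p = 0.056, adjusted over 8 pairs 0.444) and Spearman's rho = 0.721 (exact permutation p = 0.049, adjusted 0.389). Olig2 followed at 0.497 (rho = 0.442, exact permutation p = 0.34 and 0.33). Sox10 was at 0.336 (rho = 0.321, exact permutation p = 0.347 and 0.403) and Mbp at 0.334 (rho = 0.309, exact permutation p = 0.389 and 0.472). Without male +/+ replicate 1 the r of Sox10 was 0.040. For Cspg4 r was 0.318 (rho = 0.091, exact permutation p = 0.625 and 0.826) and for Olig1 0.138 (rho = -0.091, exact permutation p = 0.951 for both).

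For Bcas1 r was -0.288 (rho = -0.382, exact permutation p = 0.507 and 0.396) and for Nkx2-2 -0.492 (rho = -0.600, exact permutation p = 0.229 and 0.153). Both were positive with litter means removed, at 0.449 and 0.170, and Bcas1 was at 0.210 without male +/+ replicate 1. Cspg4 and Mbp turned negative with litter means removed, at -0.185 and -0.438, and without male +/+ replicate 1 Cspg4 was at -0.425 and Mbp at -0.0062. The 2 libraries farthest from the median of Gpr17 were male E147A/+ replicates 2 and 3, with 4 and 0 counts of it. Without these libraries r was 0.611 for Pdgfra, 0.674 for Cspg4, 0.587 for Mbp and 0.513 for Sox10. In that setting it was -0.028 for Olig2, -0.794 for Olig1, -0.851 for Bcas1 and -0.668 for Nkx2-2, so the values for Olig2 and Olig1 rest on those libraries. Without male E147A/+ replicate 3 alone, Olig2 was at -0.184 and Olig1 at -0.731. With the arrangements possible within groups, the smallest adjusted p that 1 of 8 pairs can reach alone is 0.056, so no single relation could pass at any strength. No r over all 10 libraries is tested for Gpr17, since its libraries fall apart by genotype and each genotype has 5. Cultures of the same litter are also not fully independent.

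**Figure D3:**
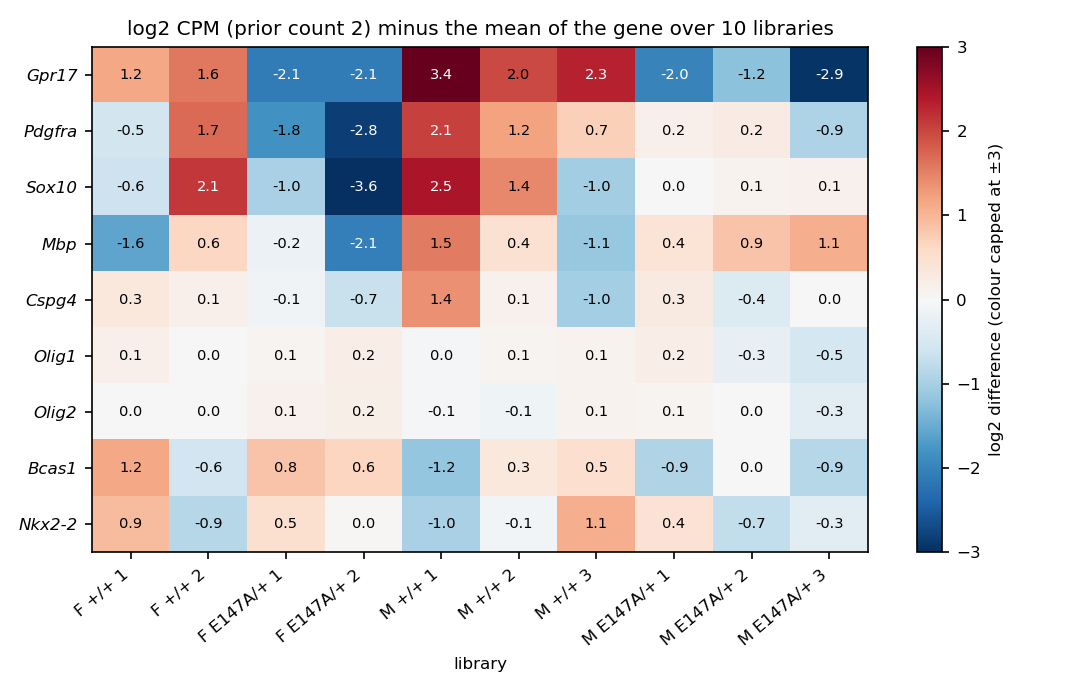
Log2 CPM of each gene minus its mean over the 10 libraries (colour and printed value, red above and blue below the mean, colour capped at 3), with libraries in columns by sex and genotype (F female, M male). The Gpr17 row splits by genotype, while Sox10, Pdgfra and Mbp tend to be high or low in the same cultures and Bcas1 and Nkx2-2 often go opposite to them.

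Among the other 8 genes, 28 pairs were compared over the 10 libraries. The permutation shuffled all 10 libraries freely, without regard to sex, genotype or litter. Its p therefore also takes in differences that 2 genes share between groups or litters. Sox10 and Pdgfra had r = 0.887 (permutation p = 0.00058, adjusted 0.016) and rho = 0.745 (permutation p = 0.017, adjusted 0.059). The r was 0.716 without the 2 farthest libraries and 0.817 with group means removed (exact permutation within groups, adjusted p = 0.344). Sox10 and Mbp had r = 0.820 (permutation p = 0.0023, adjusted 0.033) and rho = 0.867 (permutation p = 0.0024, adjusted 0.041). This r was 0.587 without the 2 farthest libraries and 0.984 with group means removed (adjusted p = 0.194). Pdgfra and Mbp themselves had r = 0.605 (permutation p = 0.065, adjusted 0.164) and rho = 0.564 (permutation p = 0.097, adjusted 0.181). Female +/+ replicate 2, male +/+ replicates 1 and 2 and male E147A/+ replicate 2 were above the mean for all 3 genes, and female E147A/+ replicate 2 was the lowest culture for each.

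Nkx2-2 and Bcas1 tended to be low where Mbp was high. Mbp and Nkx2-2 had r = -0.729 (permutation p = 0.019, adjusted 0.109) and rho = -0.818 (permutation p = 0.0059, adjusted 0.041). Sox10 and Nkx2-2 had r = -0.587 (permutation p = 0.071, adjusted 0.164) and rho = -0.818 (permutation p = 0.0061, adjusted 0.041). Bcas1 and Mbp had r = -0.804 (permutation p = 0.0063, adjusted 0.059) and rho = -0.806 (permutation p = 0.0074, adjusted 0.041), and r was -0.774 without the 2 farthest libraries. The same held for the rank correlation of Olig1 and Mbp (rho = -0.818, permutation p = 0.0059, adjusted 0.041), with r = -0.604 (permutation p = 0.058, adjusted 0.162). For Olig1 and Mbp r was -0.443 and rho -0.770 with group means removed. With group means removed, the arrangements possible within groups allow a single pair among the 28 no adjusted p under 0.194, so that setting gives values and no test of a pair.

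Over all 17109 other tested genes, likeness to Gpr17 was ranked by r in log2 CPM over the 10 libraries, as a description without a p. This r uses the counts by which Gpr17 was chosen, so it mainly finds genes that split by genotype, and each of the 5 highest was lower in all E147A/+ than in all +/+ libraries. The highest were Hsf2bp (r = 0.960), Bpgm (0.955), the pseudogenes Rpl36-ps3 (0.947) and Rps18-ps6 (0.946) and Zfp488 (0.938). The pseudogenes may share reads with their parent genes. Zfp488 is a zinc finger factor of the oligodendrocyte lineage. Pdgfra ranked 127 (r = 0.779) and Sox10 ranked 903 (0.562). With group means removed the highest were Echdc1 (0.967), Gm9869 (0.956) and Zfp433 (0.943), and Pdgfra ranked 490.

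Of 56 further lineage genes on 5 lists, 42 were tested and 0 passed over both sexes in edgeR, with 11 at an unadjusted p under 0.05 (1010 of 17110 over all genes) and a lowest adjusted p of 0.408. Their median log2 fold change was -0.32, with 32 of 42 negative, beside a median of -0.01 over all genes. Of the 42, 4 genes (9.52%) had all 5 E147A/+ libraries below all 5 +/+ libraries, namely Zfp488, Lims2, Tmem100 and Cnp, beside 0.742% of all genes. No listed gene had all 5 above. Of the 42, 4 (Zfp488, Lims2, Cldn11 and Gjc3) passed the filter on low counts only through +/+ libraries and 1 (Susd5) only through E147A/+ libraries, and Lims2 may hold reads of Gpr17. These counts, this median and those of the single lists below include such genes, so they describe the lists and nothing is read from them.

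Among 13 regulators, 11 were tested, 0 passed and 8 were negative, with a median of -0.19. Zfp488 had 0 and 6 counts in the female E147A/+ cultures against 20 and 29 in the female +/+ cultures, and 8, 4 and 0 in the male E147A/+ cultures against 43, 20 and 57 in the male +/+ cultures. Like Gpr17 it passed the filter only through +/+ cultures, so it had to be lower in E147A/+, and its log2 fold change of -3.41 (SE 0.81) only describes these counts. The most abundant regulator, Sox8, was at 0.07 (SE 0.25) and differed between genotypes by less than its error.

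Of 11 further progenitor genes, 10 were tested, 0 passed and 9 were negative, with a median of -0.91. Their summed level was 862 to 1123 CPM in E147A/+ and 1171 to 1490 CPM in +/+. How often such a sum splits by genotype was not tested, and nothing is read from it. Most of this sum was Ptprz1, a receptor phosphatase of neural stem and progenitor cells, at -0.35 (SE 0.14, adjusted p = 0.803). Ptprz1 alone overlapped, at 750 to 1027 CPM in E147A/+ and 996 to 1247 CPM in +/+. Vcan, a matrix proteoglycan, was at -0.76 (SE 0.28, adjusted p = 0.776). Tmem100 was at -1.06 (SE 0.40, adjusted p = 0.786).

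Of 10 premyelinating genes, 9 were tested, 0 passed and 7 were negative, with a median of -0.08. The most abundant were Fyn, a kinase of oligodendrocyte maturation, at 0.07 (SE 0.15) and Tns3 at -0.04 (SE 0.16). Lims2 passed the filter on low counts only through +/+ cultures, so its log2 fold change of -3.07 (SE 0.78) only describes its counts. It had 1 and 3 counts in the female E147A/+ cultures against 7 and 27 in the female +/+ cultures, and 1, 3 and 6 in the male E147A/+ cultures against 50, 10 and 8 in the male +/+ cultures. Lims2 (chromosome 18, 31922290 to 31958619) encloses Gpr17 on the opposite strand, and the use of strand in counting is not given in the sources used here. Reads of Lims2 and Gpr17 can therefore not be told apart with certainty. The 13 other tested genes within 500 kb of Gpr17 lay between -0.53 and 0.39, and 0 of the 14 passed.

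Of 14 further myelin genes, only 6 were tested, 0 passed and 5 were negative, with a median of -0.92. Their summed level, most of it Cnp, was 69.5 to 95.3 CPM in E147A/+ and 100.8 to 180.2 CPM in +/+. Nothing is read from this split either. Cnp, an enzyme of myelinating cells that is also found earlier in the lineage, was at 81.5 and 72.1 CPM in female E147A/+ against 112.6 and 96.3 in female +/+. Males had 83.7, 59.0 and 64.0 CPM in E147A/+ and 170.6, 87.5 and 109.4 in +/+. The genotypes did not overlap, and the log2 fold change was -0.64 (SE 0.19, adjusted p = 0.701). Ugt8a, which makes myelin lipid, was at -0.60 (SE 0.35, adjusted p = 0.821). Mog, Mag and Mobp, genes of the mature oligodendrocyte, had at most 1, 2 and 1 counts in any library.

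Of 8 genes of PDGF and sonic hedgehog signalling, which act on the lineage from outside, 6 were tested, 0 passed and 3 were negative, with a median of 0.03. Smo, which passes on the hedgehog signal, was at -0.02 (SE 0.10) and Ptch1, its receptor, at -0.14 (SE 0.20). The ligand Pdgfa was at 0.28 (SE 0.36, adjusted p = 0.878), while its receptor gene Pdgfra was at -2.38.

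**Figure D4:**
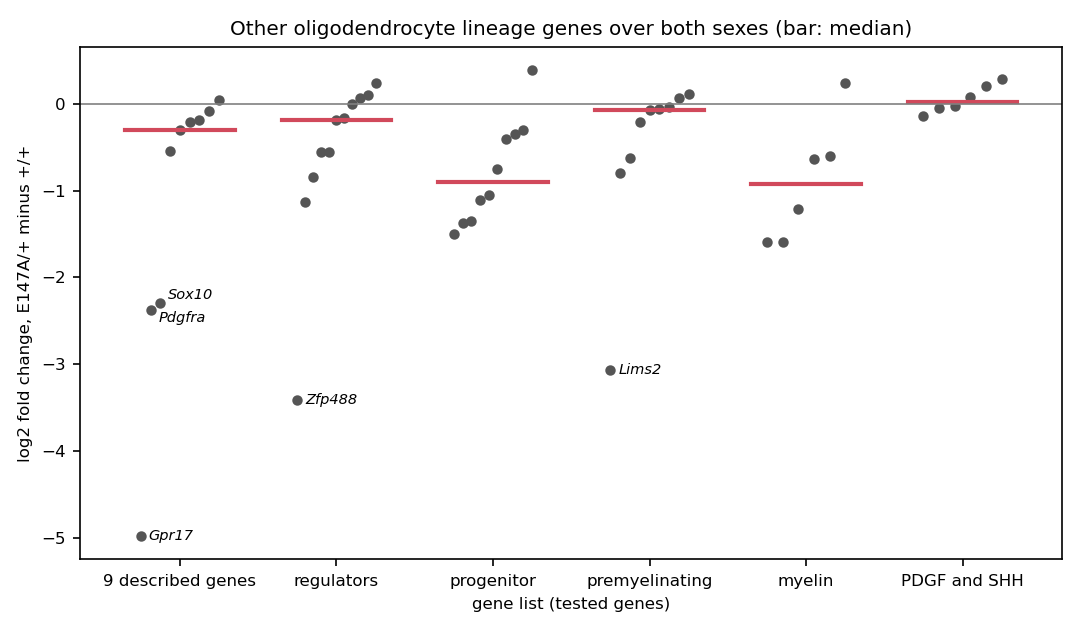
Log2 fold change over both sexes (vertical axis) of every tested gene of each list (points), with the median of the list as a red bar and genes below -2 named. The lists of progenitor and myelin genes have medians of -0.91 and -0.92, and the lists of premyelinating genes and of PDGF and SHH signalling have medians of -0.08 and 0.03.

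Markers of other cell types were summed in the same libraries. Ventral telencephalon markers (Gsx2, Dlx1, Dlx2, Dlx5, Nkx2-1 and Lhx6) were at 11.1 and 12.6 CPM in the female E147A/+ cultures, 1.77 to 4.19 in male E147A/+ and 0.304 to 4.32 in +/+. Nkx2-1 had 0 counts throughout. Dlx2 passed the filter only through E147A/+ libraries. Its log2 difference of 2.71 (SE 0.61) only describes its counts, and nothing is read from it. Dorsal markers were at 68.7 to 107.8 CPM in E147A/+ and 57.2 to 111.3 in +/+. Astrocyte markers were at 909 to 1362 against 865 to 1401 CPM, and the astrocyte gene Gjb6 had 0 counts. Neuron markers were at 597 to 766 against 621 to 1002 CPM, of which Map2 alone gave 477.3 to 981.8. Of the others, Dcx and Stmn2 are named after their values were seen. Dcx was at 1.39, 1.46 and 5.10 CPM in female E147A/+ replicate 2, female +/+ replicate 1 and male +/+ replicate 3, at 6.77 in female E147A/+ replicate 1 and at 14.8 to 26.5 in the other 6. Stmn2 was at 0.169 to 0.786 CPM in those first 3, at 4.69 in female E147A/+ replicate 1 and at 8.45 to 24.9 in the other 6. Tubb3 split in the same way, at 5.27 to 9.25 CPM in these 4 and 14.0 to 30.1 in the other 6. The remaining neuron markers did not. Gad1 and Snap25 were also low in male +/+ replicate 1, at 4.66 and 3.76 CPM. In female E147A/+ replicate 2 Gad1 was at 17.9 CPM and Rbfox3 had its highest value, 8.25. Map2 was highest in male +/+ replicate 3. The 4 cultures low for Dcx, Stmn2 and Tubb3 also had the lowest Sox10 and Mbp. They were lowest too for the dorsal markers Emx1 (at most 0.855 CPM, the other 6 at 1.15 or more) and Neurog2 (at most 0.185, the other 6 at 0.670 or more). The same held for the regulator Id4 (at most 3.16, the other 6 at 4.15 or more). The remaining dorsal markers did not split in this way, and the match is described for the genes named only. The part of neuronal RNA in the joint variation of Sox10, Pdgfra and Mbp was not tested.

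Microglia markers summed to at most 0.502 CPM, with 0 of 7 tested. Endothelial markers were at 0.670 to 2.83 CPM in E147A/+ and 0.939 to 4.12 in +/+, and fibroblast markers at 5.73 to 23.9 and 4.55 to 28.6. No gene of these 9 lists passed in edgeR. The ventral sum was higher in both female E147A/+ cultures than in both female +/+ cultures (Gsx2, Dlx1, Dlx2 and Dlx5 but not Lhx6), where genotype and litter cannot be told apart. With so few cultures nothing is read from this order. The part of the ventral sum in the Pdgfra, Sox10 and Gpr17 levels of the female cultures was not tested. Fibroblasts can express Pdgfra, and the part of the fibroblast sum in its level was not tested.

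Promoter sequence is shown for Pdgfra and Zfp488, the genes found in the promoter table with the most negative fold changes, and for Olig2 as the gene that differed least. Of the 8 lineage genes looked for (7 of the 9 and Zfp488), 5 were found in the RefSeq promoter table (build GRCm38.p6), namely Olig2, Pdgfra, Cspg4, Nkx2-2 and Zfp488. The windows are the 250 bases before the start used in that table, 5′ to 3′ on the strand of the gene. Those starts differ from the gene coordinates given above, so the Olig2 and Cspg4 windows reach past the start of the gene as listed and the Nkx2-2 window lies within it. Capitals mark matches to CANNTG, the E-box read by bHLH factors such as OLIG2. ACAAAG, the core read by SOX factors, was also searched on both strands. CANNTG is its own reverse complement.
Pdgfra: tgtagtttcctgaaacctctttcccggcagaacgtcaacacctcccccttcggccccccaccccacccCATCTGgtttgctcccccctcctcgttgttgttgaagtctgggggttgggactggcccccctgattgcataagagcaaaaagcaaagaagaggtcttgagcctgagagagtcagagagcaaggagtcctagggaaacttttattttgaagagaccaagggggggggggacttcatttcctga
Zfp488: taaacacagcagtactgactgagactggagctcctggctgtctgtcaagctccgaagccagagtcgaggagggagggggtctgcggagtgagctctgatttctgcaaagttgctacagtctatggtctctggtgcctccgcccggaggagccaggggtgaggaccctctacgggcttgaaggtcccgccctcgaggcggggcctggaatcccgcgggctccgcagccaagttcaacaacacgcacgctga
Olig2: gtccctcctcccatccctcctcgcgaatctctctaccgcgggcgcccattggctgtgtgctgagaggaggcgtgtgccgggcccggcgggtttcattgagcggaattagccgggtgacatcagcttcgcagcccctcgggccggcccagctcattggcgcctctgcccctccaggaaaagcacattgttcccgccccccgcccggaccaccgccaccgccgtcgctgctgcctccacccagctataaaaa

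The Pdgfra window is chr5:75152001-75152250 on the plus strand, that of Zfp488 is chr14:33978765-33979014 on the minus strand, and that of Olig2 is chr16:91225300-91225549 on the plus strand. Pdgfra had 1 CANNTG match, at position 69 from the first base shown, Nkx2-2 had 3 and Zfp488, Olig2 and Cspg4 had 0. None of the 5 windows held ACAAAG. Of 32851 promoters of the same length in the table, 66.2% held CANNTG and 16.5% held ACAAAG, so a match is common and is a description only.

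In the 4 female libraries counts were also given for the 129 and the Cast allele. Gpr17 had 8 counts from 129 and 2 from Cast in female +/+ replicate 1, a Cast share of 20.0% (95% Wilson interval 5.67 to 51.0). In female +/+ replicate 2 it had 22 and 0, a share of 0% (up to 14.9). In female E147A/+ it had 0 and 0 counts in replicate 1 and 1 and 1 in replicate 2, too few to read. Genes within 5 Mb of Gpr17 had a median Cast share of 47.7% in female +/+ replicate 1 and 0.288% in replicate 2, and of 0.321% and 48.3% in female E147A/+ replicates 1 and 2. Each genotype thus had 1 female library with both strains around Gpr17 and 1 with almost no Cast counts. Allele counts of the male libraries were not used here, and the part of the local strain in the Gpr17 level was not tested.

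The labels describe a Cast father for all embryos, and under that description a share near 50% would hold on every autosome. Around each of the 9 genes at least 1 female library had a median Cast share under 6%. Around Pdgfra this was so in all 4, with medians of 0.105% to 0.259%, and Pdgfra itself had 0 of 116, 0 of 68, 0 of 180 and 1 of 1168 Cast counts. Its allelic counts therefore say nothing about a Cast allele. Around Cspg4 the medians were 50.2% and 49.7% for female E147A/+ against 0.869% and 0.623% for female +/+, so there strain and genotype cannot be told apart in females. Cspg4 itself was at 48.4% and 49.6% against 0.118% and 0.223%.

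Olig1 and Olig2 were close to their surroundings. Olig1 had Cast shares of 48.5% and 0.108% in female E147A/+ against 48.4% and 48.6% in female +/+, and Olig2 had 50.7%, 0.228%, 45.2% and 44.5%. Their levels in the library with almost no Cast counts, 1191 and 680 CPM, were as high as in the others. Nkx2-2 was at 42.4% and 0.719% in E147A/+ and 53.2% and 0% in +/+. At 42.4% (35.9 to 49.1) in female E147A/+ replicate 1, 6 of 54 neighbours were lower and their median was 51.8%. At 53.2% in female +/+ replicate 1, 31 of 52 were lower and their median was 51.9%.

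Bcas1 stood above its surroundings where both strains were present. Its Cast share was 62% (59.9 to 64.1) in female E147A/+ replicate 1, where 54 of 59 neighbours were lower and their median was 48.3%. In female +/+ replicate 1 it was 71.6% (69.5 to 73.6), where 50 of 54 neighbours were lower and their median was 48.6%. The Cast allele thus gave more counts than the 129 allele in 1 library of each genotype. Sox10 was below its surroundings in female +/+ replicate 1, at 24.2% (15.2 to 36.2), where 3 of 161 neighbours were lower and their median was 49.4%. In female E147A/+ replicate 2, the other library with both strains there, Sox10 had 2 counts from 129 and 6 from Cast, under the minimum of 10, a share of 75% (40.9 to 92.9). Mapping that favours one strain was not tested for either gene.

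Of the 9 genes, 6 had at least 10 allelic counts in all 4 libraries. For these the exact two-sided permutation p between genotypes was 0.33 or more, and 0.33 is the smallest that 2 against 2 libraries can give. No difference could therefore pass, and nothing is read from this comparison. Gpr17, Sox10 and Mbp did not reach that minimum in female E147A/+ replicate 2.

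**Figure D5:**
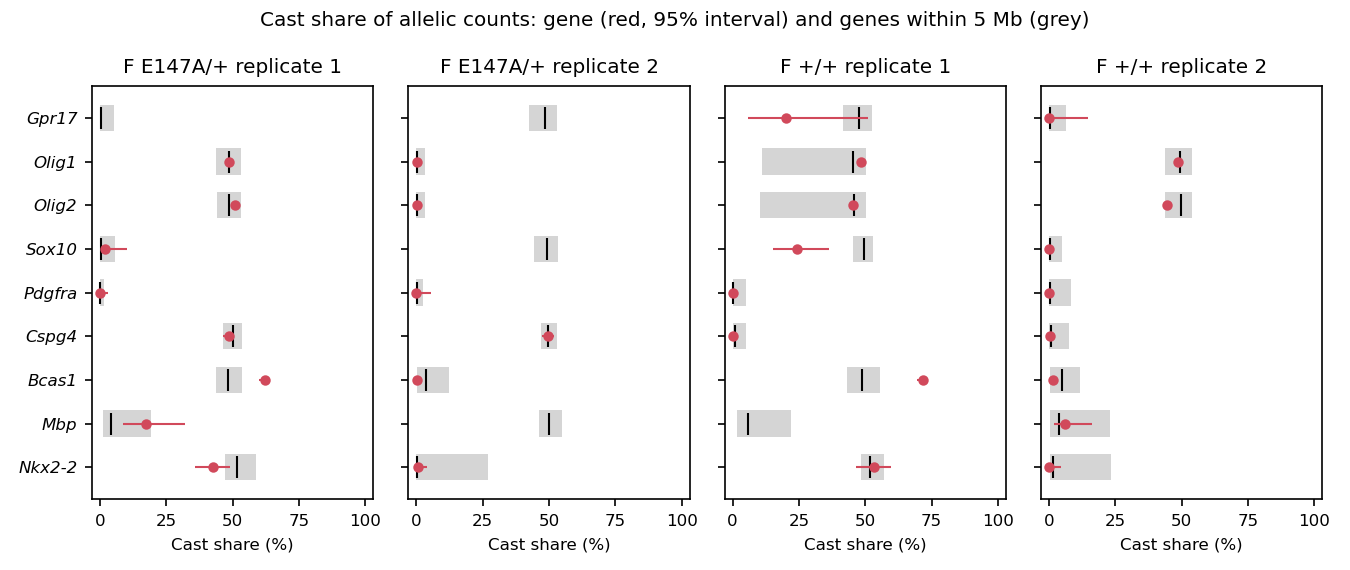
Cast share of the allelic counts (horizontal axis, percent) of each gene with at least 10 allelic counts (red points with 95% Wilson intervals) in each female library, with the median (black mark) and the middle quartiles (grey bar) of genes within 5 Mb. Bcas1 lies above the grey bar at 62% and 71.6% in the libraries where the region holds both strains, and Sox10 lies below it at 24.2% in female +/+ replicate 1.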

How the data were processed

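Raw counts per gene for 10 libraries, and counts assigned to the 129 and Cast alleles for the 4 female libraries, were deposited by the authors. Per the labels' protocols, stranded poly(A) libraries were read as 80 bp pairs. Trim Galore 0.4.4, HISAT2 2.0.5, featureCounts, R 3.5.1, edgeR 3.24.0 and the GRCm38/mm10 build are named in the submitters' processing notes. How alleles were assigned, whether counting used strand and which annotation release served are not given in the sources used here. Of the table's rows, 99.3% had the same coordinates as GENCODE M21, which gave exon lengths.

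Genes were kept by filterByExpr (17110 of 52632), with library sizes scaled by TMM. The quasi-likelihood test of edgeR 4.0.16, run in R 4.3.3, was fitted to all 10 libraries with 1 mean per sex and genotype group and 6 residual degrees of freedom. Benjamini-Hochberg adjustment covered all genes tested, and the threshold was 0.05. Log2 CPM used a prior count of 2. Correlations used exact permutations within groups or, for pairs without Gpr17, 100000 free permutations over all libraries. The methods were tested on simulated counts. Replicates are separate embryos, grouped by their titles.

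The 9 genes, the lists and the tests were chosen with earlier results of these data known. Genes named were the 9, those of each lineage list past the threshold and the 2 most abundant tested, defining cell type markers at or near 0, and those most like Gpr17. A gene that this rule names among the regulators is not reported here. Lims2, Tmem100, Id4, Dlx2 and Pdgfa, and the genes written out from the marker lists, were named after their values were seen, and so was Zfp488 in the promoter search. Alternatives were RLE scaling, DESeq2 1.42.0, limma-voom (limma 3.58.1), no filter, 10 counts in every library, a litter covariate, only the groups compared, a replicate block and leaving out each library. A crossed female block, males of litters 1 and 3 alone, and raw totals and leave-one-out for the count ratios were added after seeing the data.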

Additional observations from a re-analysis of the deposited data

How the results depend on the processing

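The genotype calls of Gpr17 rest on the counts by which it was chosen, and nothing is read from them. Counting it, 1 of the 9 genes was past the threshold over both sexes, 2 in DESeq2 and without a filter, where Pdgfra was the other, and 0 with 10 counts in every library, which removed Gpr17, with a litter covariate and with a replicate block. It ranged from 0 to 1 when each library was left out, and it was 0 without female E147A/+ replicates 1 or 2, female +/+ replicates 1 or 2, male E147A/+ replicate 1 or male +/+ replicates 1, 2 or 3. In females the count of genes was 0 in edgeR and 2 in DESeq2 (0.258% of all genes). In males it was 0 in edgeR and 1, Gpr17, in DESeq2 (0.27% of all genes), in limma-voom (0.0526%) and without a filter (0.0493%). For litter 3 against litter 1 it was 0 and, without a filter, 1, beside 4.96% of all genes. Over all genes edgeR called 14 genes over both sexes, DESeq2 113, limma-voom 29, edgeR without a filter 33, with 10 counts in every library 9 and with a litter covariate 3. Leaving out each library gave 2 to 12.

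Same-numbered libraries are different embryos. Their deviations had a correlation of -0.304 in females and of -0.238, 0.416 and 0.034 in males. With 2 libraries in each female group the crossed numbers must give the opposite value, 0.304. Male replicates 2 shared litter 1 and male replicates 3 shared litter 3. These values cannot decide whether the numbers pair the samples, so the block is given only as an alternative. With the replicate block Pdgfra was at -2.21 over both sexes (adjusted p = 0.486, against 4.63e-05 to 0.980 over its 18 alternatives), 5 genes were called in all and 0 of the 9, and with the female numbers crossed 6 were called and 0 of the 9. No block was possible for the sex and litter contrasts, whose groups were not numbered together.

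Values that had not passed the threshold turned direction, and the cause was not tested. With a litter covariate these were Olig2 (-0.043) and Mbp (0.30) over both sexes, Olig1 (-0.28) and Nkx2-2 (0.53) in females and Cspg4 (0.33) in males, where litters 1 and 3 alone also gave 0.33. With limma-voom Nkx2-2 was at 0.17 over both sexes, 0.29 in females and 0.049 in males, and Olig2 at 0.10 in males. With the block Nkx2-2 in females was at 0.22 in either pairing. With litter means removed, r with Gpr17 was -0.185 for Cspg4, 0.449 for Bcas1, -0.438 for Mbp and 0.170 for Nkx2-2.

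When each library was left out, the log2 fold change over both sexes ran from -0.50 to 0.38 for Bcas1 (positive without female +/+ replicate 1), from -0.96 to 0.47 for Mbp (positive without female E147A/+ replicate 2, female +/+ replicate 2 or male +/+ replicate 1) and from -0.53 to 0.39 for Nkx2-2 (positive without female +/+ replicate 1 or male +/+ replicate 3). In females it ran from -0.42 to 1.31 for Bcas1, -2.09 to 0.80 for Mbp, -0.67 to 1.14 for Nkx2-2 and -0.010 to 0.12 for Olig1. In males it ran from -0.90 to 0.32 for Cspg4, -0.30 to 0.98 for Mbp, -0.78 to 0.34 for Nkx2-2 and -0.13 to 0.064 for Olig2. The litter difference of Gpr17 ran from -4.72 to 0.34. The r with Gpr17 ran from -0.735 to 0.210 for Bcas1, -0.425 to 0.628 for Cspg4, -0.0062 to 0.571 for Mbp, -0.731 to 0.348 for Olig1 and -0.184 to 0.741 for Olig2. Male +/+ replicate 1 turned Bcas1, Cspg4 and Mbp, and male E147A/+ replicate 3 turned Olig1 and Olig2. Pdgfra kept its direction in every alternative in both sexes and in each, and Sox10 did too.

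Groups of 2 and 3 cultures, and at most 4 counts of Gpr17 in each E147A/+ library, limit the precision. A fold change of Gpr17, and in part its r with other genes, rests on those few counts. Differences of Mbp and Sox10 smaller than their spread over cultures could not be detected.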
